A study of Mus musculus with 3 samples.

Results

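The amino acid transporter genes examined here are those of 7 solute carrier (SLC) families, SLC1, SLC3, SLC6, SLC7, SLC36, SLC38 and SLC43. Members were taken by gene symbol alone, from the probe sets that the platform annotation assigns to exactly 1 gene, and each gene was read by its brightest probe set, by the mean of all 3 arrays. The rule found 58 of 18193 genes, read by 118 probe sets. The families are not made up of amino acid transporters alone. SLC6 also holds carriers of neurotransmitters, taurine and creatine, and SLC43 holds a nucleobase carrier.

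Mammalian cells cannot make the essential amino acids and take them up through membrane carriers. Large neutral amino acids such as leucine enter through exchangers built from a heavy chain (the CD98 protein, encoded by Slc3a2) and a light chain of the SLC7 family, and these exchangers spend glutamine that sodium-coupled SLC1 and SLC38 carriers bring in. In T cells the uptake of glutamine, leucine and arginine is known to increase after antigen recognition, and leucine and arginine signal through the kinase complex mTORC1 at the lysosome, where other carriers of these families export or sense amino acids.

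Affymetrix mouse genome arrays were hybridised with RNA of CD8+ T cells sorted by flow cytometry, 1 array for each of 3 groups. The first 2 groups were the NK1.1+ and the NK1.1- CD8+ T cells of Tgfbr2fl/fl x CD4-Cre mice (KO), aged 15 to 17 days, whose T cells lose the type II receptor for transforming growth factor β (TGF-β). NK1.1 is a receptor by which mouse natural killer (NK) cells are recognised. The third group was CD8+ T cells of littermates with 1 floxed and 1 wild-type copy, Tgfbr2fl/wt x CD4-Cre (control), so that all 3 groups carried Cre and the control kept 1 intact receptor allele. Cre under the Cd4 promoter acts in thymocytes that pass through a CD4+ stage, and thus in both CD4+ and CD8+ lineages. The array title calls the control cells NK1.1-, while a passage of the study's description speaks of total CD8+ cells, so the control gate is not settled. The sources used here do not give how many mice contributed to an array. The study asked what sets the NK1.1+ T cells of the mutants apart.

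Values are probe set intensities on a linear scale. A background level of 9.66 was set, and a probe set at or above it is called measured. Lower values were lifted to the level, and a difference that involves one is therefore a bound and reads "at least". Calls of higher or lower need a 2-fold difference, which is 1 on the log2 scale. Since each group has 1 array, the spread between mice is unknown, nothing could be tested, and every difference describes single arrays. The number of arrays limits the precision. In bulk RNA, fewer cells of a type and less RNA per cell cannot be told apart.

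The 3 arrays did not read alike. The ratio of the 3′ to the 5′ probe set of Actb was 81.9 on the KO NK1.1+ array, 12.3 on the KO NK1.1- array and 6.02 on the control array, and for Gapdh this ratio was 10.8, 26.7 and 17.8. Genes measured on both arrays had a median log2 difference of -0.26 for KO NK1.1+ against control, -0.32 for KO NK1.1+ against KO NK1.1- and 0.0079 for KO NK1.1- against control. Of 10 monocyte, macrophage and granulocyte markers tested, 9 were called higher and 0 lower on the KO NK1.1+ array against control. Their summed value over 14 genes was 9811 in KO NK1.1+, 415 in KO NK1.1- and 312 in control cells, of which Csf1r gave 7666, 54.5 and 30.5, with Cd14, C1qa, Itgam and Ms4a7 below the level on all arrays. The 8 CD8+ T cell markers on the array were all measured on all 3 arrays, with summed values of 6819, 11700 and 15245 in the same order, and NK cell markers summed to 35141, 22121 and 802. Gzma, the gene of granzyme A, which T cells also use, gave 31856, 19886 and 158 of these, while the adaptor gene Tyrobp read 1183, 52.6 and 21.6. Of 5 dendritic cell markers tested, 3 were called higher in KO NK1.1+ than in control cells and 0 lower, with sums of 1945 in KO NK1.1+, 629 in KO NK1.1- and 564 in control cells. Of these sums H2-Aa gave 1517, 289 and 325. Itgax, also called higher, read 104, 187 and 9.88 in the same order, and Flt3, Siglech and Xcr1 were below the level on all arrays. The B and plasma cell markers summed to 2631, 503 and 398, of which Jchain gave 2282, 16.0 and 15.9, and in KO NK1.1+ against control 2 of 6 were called higher and 1 lower. The markers of CD4+ and regulatory T cells summed to 203, 435 and 467. The 3 erythroid markers on the array were below the level on every array. The brightest probe set of the targeted gene, Tgfbr2, read 1808 in KO NK1.1+, 1271 in KO NK1.1- and 2634 in control cells. Which exon was floxed is not stated in those sources, and if this probe set reads another exon it checks nothing.

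Of the 58 transporter genes, 22 were measured on at least 1 array and 17 on all 3. On the single arrays, 21 were measured in KO NK1.1+, 18 in KO NK1.1- and 17 in control cells. Over all genes the counts had the same order, with 10088, 9700 and 9585 measured. The other 36 transporter genes were below the level everywhere, the highest of them Slc43a1 at 9.05 in KO NK1.1- cells. By family, 6 of 9 SLC38 genes on the array, 2 of 3 SLC43 genes, 2 of 4 SLC36 genes, 3 of 7 SLC1 genes, 4 of 18 SLC6 genes and 1 of 5 cationic transporters of SLC7 were measured. Of the heterodimers, 1 of 2 heavy chains and 3 of 10 light chains were measured. Among the unmeasured genes were Slc7a11, the light chain of the cystine and glutamate exchanger, with at most 6.69, Slc7a8, a second light chain for large neutral amino acids, and Slc7a7, a light chain known from macrophages and epithelia. The neurotransmitter carriers Slc6a3 and Slc6a4, for dopamine and serotonin, were also below the level on all 3 arrays. A value under the level leaves a low transcript level possible.

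**Figure D1:**
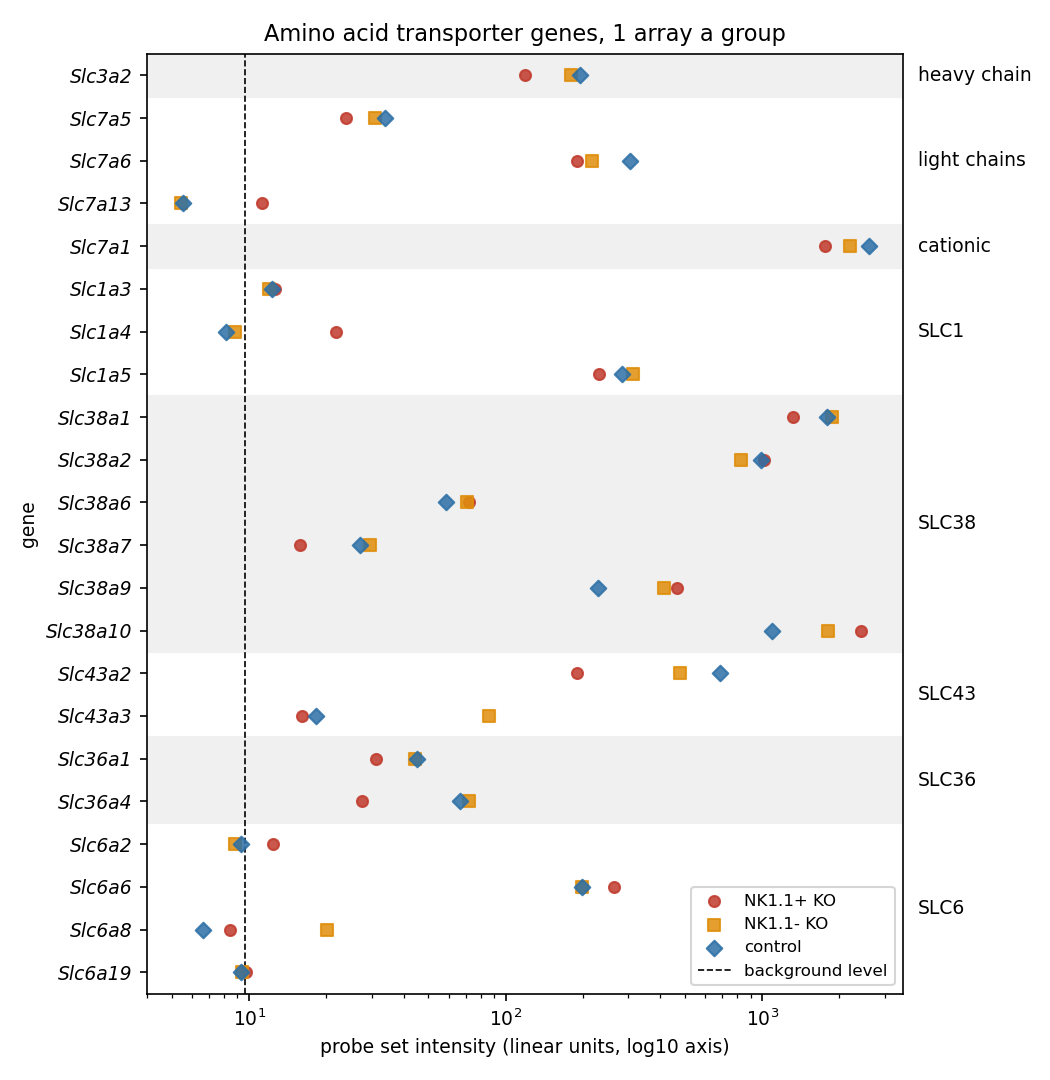
Intensity of the 22 measured transporter genes (rows, grouped by family) on the KO NK1.1+ array (circles), the KO NK1.1- array (squares) and the control array (diamonds), on a log10 axis, 1 point an array, with the background level of 9.66 dashed. Slc43a3 stands apart in KO NK1.1- cells (85.99 against 18.3 in control cells) and Slc43a2 in KO NK1.1+ cells (190 against 687 in control cells); positions of different genes on the axis cannot be compared, since each has its own probe set.

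Against control cells, KO NK1.1+ cells read lower for the leucine and phenylalanine carrier Slc43a2 and the amino acid carrier Slc36a4, and higher for Slc38a9, Slc38a10 and Slc1a4. Of 21 transporter genes tested, 3 were called higher, or 14.3%, against 9.85% of all 10633 genes tested. Called lower were 2, or 9.52%, against 22.9% of all genes tested. The median log2 difference of the 21 genes was -0.18, against -0.17 over all genes tested. The other transporter genes tested were not called, and for Slc7a13, Slc6a2 and Slc6a19 among them the difference is a bound that does not show them within 2-fold. The Actb ratio and most marker lists also moved between these arrays. In KO NK1.1+ cells 9 of 10 monocyte, macrophage and granulocyte genes were called higher. The same held for 3 of 5 dendritic cell genes and 5 of 6 NK cell genes. Called lower were 6 of 8 CD8+ T cell genes and 2 of 3 genes of CD4+ and regulatory T cells. The B and plasma cell list was mixed, with Jchain and Cd22 higher and Cd79b lower. What these lists and the Actb ratio contribute to the transporter values was not tested. With suffixed probe sets left out, the split became 1 higher and 4 lower of 19 tested. Under that setting all genes had 9.34% called higher and 24.6% lower.

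Fewer transporter genes were called in the KO NK1.1- fraction. Of 18 transporter genes tested, 2 were called higher, Slc43a3 and the creatine carrier Slc6a8, and 0 were called lower. That is 11.1% called higher, against 8.05% of all 10047 genes tested, and 0% called lower, against 5.56%. The median log2 difference was 0.032 for the transporter genes and 0.011 over all genes tested. The proliferation list, which holds cyclins, mitotic kinases and replication genes, was called higher in the same comparison for 18 of 21 genes and lower for 0, with the mitotic kinase gene Aurkb at 312 in KO NK1.1- and 44.1 in control cells. Of the marker lists, NK cell genes were called higher for 4 of 4 and CD8+ T cell genes lower for 2 of 8. Dendritic cell genes were called higher for 1 of 5, and genes of CD4+ and regulatory T cells lower for 1 of 3. Of 5 B and plasma cell genes 1 was called higher and 2 lower. Of 8 monocyte, macrophage and granulocyte genes 0 were called. What cell cycling and the marker lists contribute to the transporter values was not tested.

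Between the mutant fractions, NK1.1+ cells read lower than NK1.1- cells for Slc43a3, Slc36a4, Slc43a2 and Slc6a8, and higher for Slc1a4. Of 22 transporter genes tested, 1 was called higher, or 4.55%, against 6.53% of all 10625 genes tested, and 4 were called lower, or 18.2%, against 21.3%. The median log2 difference was -0.26, against -0.24 over all genes tested. These comparisons share arrays in pairs, so their values are not independent of each other. With so few transporter genes tested, these shares lie near or under those of all genes and are no result about the families as a whole.

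**Figure D2:**
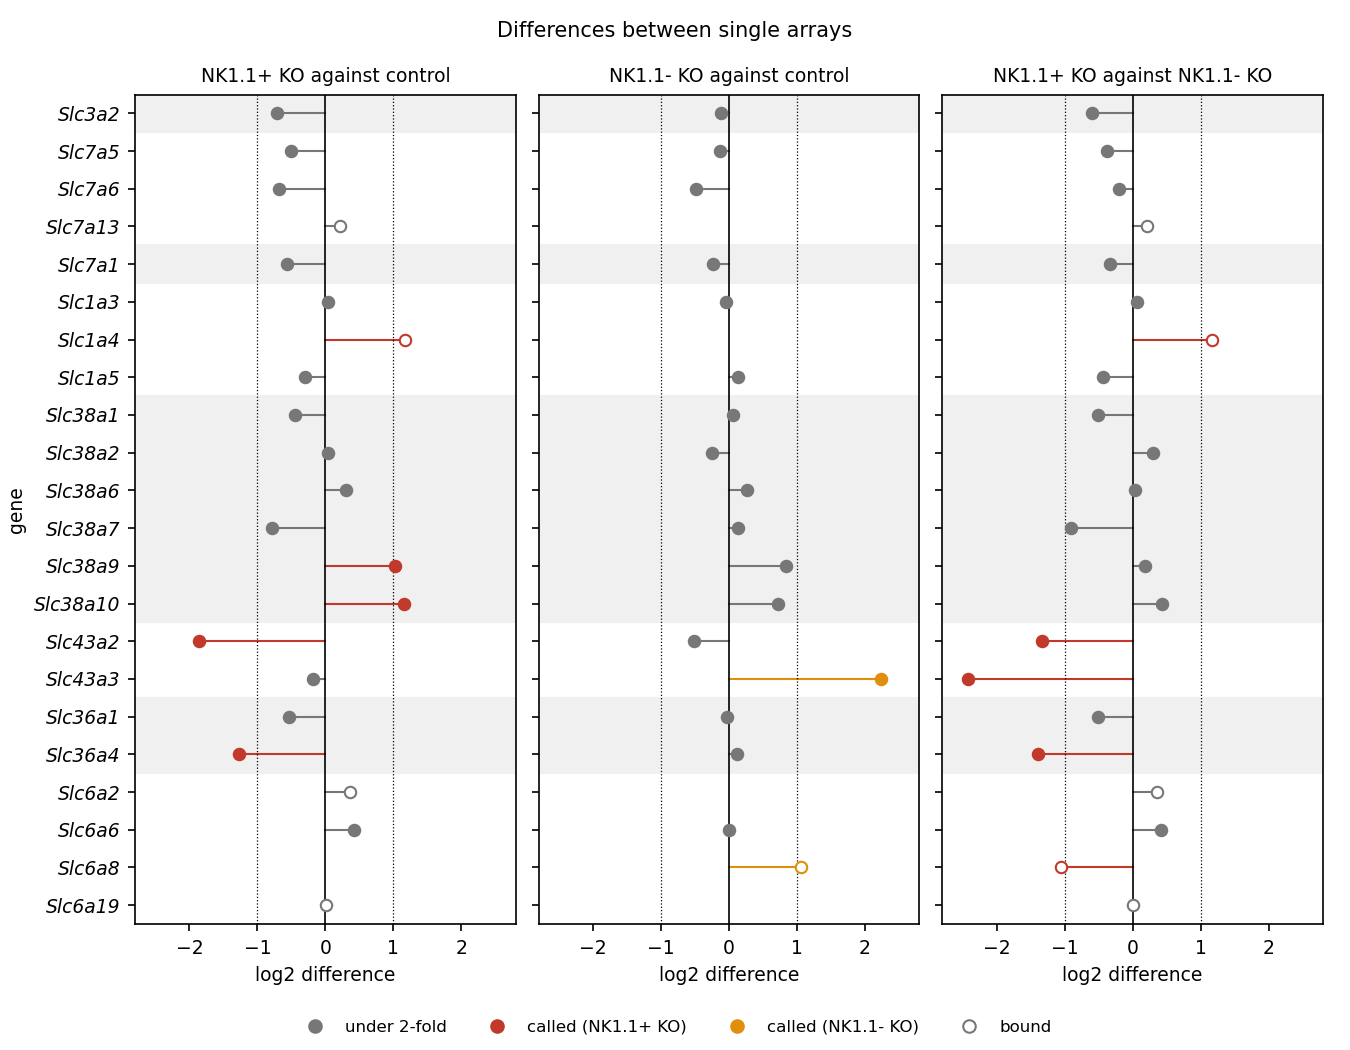
Log2 difference of each measured transporter gene (rows) in the 3 comparisons (panels), 1 point a gene, with dotted lines at the 2-fold differences that make a call, coloured points for called genes and open points for bounds. Slc43a3 reached 2.24 in KO NK1.1- against control and -2.42 in KO NK1.1+ against KO NK1.1- cells, and Slc43a2 -1.86 in KO NK1.1+ against control.

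By their brightest probe sets, Slc3a2, Slc7a5 and Slc7a6 lay within 2-fold in all 3 comparisons. Slc3a2, the heavy chain that carries the light chains to the cell surface, read 118 in KO NK1.1+, 179 in KO NK1.1- and 195 in control cells. Its log2 difference from control was -0.72 in KO NK1.1+ and -0.12 in KO NK1.1- cells. Slc7a5, the light chain of the leucine exchanger LAT1, read 23.9 in KO NK1.1+, 30.8 in KO NK1.1- and 33.9 in control cells. Both subunits were thus lowest on the KO NK1.1+ array, with differences from control of -0.51 and -0.14 on the log2 scale for Slc7a5. In mice, T cells that lack Slc7a5 are known to fail to expand after antigen.

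Slc7a6, a light chain that exchanges cationic for neutral amino acids, read 190 in KO NK1.1+, 218 in KO NK1.1- and 306 in control cells by its brightest probe set. Another probe set of Slc7a6 read 48.3, 100.1 and 144 in the same order, a log2 difference of -1.57 between KO NK1.1+ and control cells where the brightest gave -0.69. Both probe sets had the KO NK1.1+ array lowest and the control array highest. Slc7a13, a light chain described in kidney, read 11.2 in KO NK1.1+ cells and was below the level in KO NK1.1- (5.44) and control cells (5.51), which gives at least 1.16-fold higher and no upper limit. Slc7a1, the arginine and lysine carrier CAT1, read 1757 in KO NK1.1+, 2207 in KO NK1.1- and 2598 in control cells. Its other measured probe set read 122, 269 and 190, so that KO NK1.1- cells were below control by the first (-0.24 on the log2 scale) and above it by the second (0.51).

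In the SLC1 family, Slc1a5, the sodium-coupled glutamine carrier ASCT2, read 231 in KO NK1.1+, 313 in KO NK1.1- and 284 in control cells. The log2 difference from control was -0.30 for KO NK1.1+ and 0.14 for KO NK1.1- cells, both under 2-fold. Slc1a4, which carries alanine, serine and cysteine, read 21.8 in KO NK1.1+ cells, against 8.77 in KO NK1.1- and 8.12 in control cells, both below the level. The KO NK1.1+ value was thus at least 2.26-fold higher than in either other group. It came from 1 of the 3 Slc1a4 probe sets, a suffixed one, while the other probe sets were not measured, and with an offset of 32 both calls ended (0.42 and 0.40 on the log2 scale). Slc1a3, a glutamate carrier of glia, read 12.6, 11.98 and 12.3 in KO NK1.1+, KO NK1.1- and control cells and differed by at most 1.05-fold between any pair. These values lie close to the level and come from 1 of 6 Slc1a3 probe sets, the others being below it on all arrays.

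The promoter of Slc1a4, of the window from 250 bases before to 50 bases after the annotated start (RefSeq, GRCm38.p6, chr11:20332664-20332963, minus strand), is shown because it was the only one among 17 promoters of measured transporter genes with a C/EBP-ATF response element (CARE), the site through which the stress factor ATF4 acts. The letters searched were TGATGNAA, on both strands. The match, on the opposite strand and so in reverse complement, stands in capitals and begins 4 bases before the start.
Slc1a4: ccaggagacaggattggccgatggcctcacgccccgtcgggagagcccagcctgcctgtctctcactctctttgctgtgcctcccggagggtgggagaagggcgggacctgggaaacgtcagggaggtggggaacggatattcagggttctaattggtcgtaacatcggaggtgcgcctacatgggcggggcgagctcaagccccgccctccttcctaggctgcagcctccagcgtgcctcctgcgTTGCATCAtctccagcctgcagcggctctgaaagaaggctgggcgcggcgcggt
Of 32544 promoters of this length, 3.91% held the element. The Atf4 probe set, a suffixed one, read 965 in KO NK1.1+, 317 in KO NK1.1- and 269 in control cells. Of 15 genes of the ATF4 response, 4 were called higher in KO NK1.1+ than in control cells, Atf4 among them. Another 4, Asns, Phgdh, Psph and Shmt2, were called lower. The part of Atf4 in the Slc1a4 value was not tested. The match is a description of the window, and binding was not measured.

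The SLC38 family held the most measured genes, 6, and 4 of them lay within 2-fold in every comparison by the brightest probe set. Slc38a1, which brings glutamine into lymphocytes with sodium, read 1323 in KO NK1.1+, 1876 in KO NK1.1- and 1795 in control cells. A dimmer Slc38a1 probe set without suffix read 113, 232 and 259 and gave -1.20 on the log2 scale for KO NK1.1+ against control, where the brightest gave -0.44. Slc38a2, a related carrier known to be induced when amino acids run short, read 1020, 830 and 989 in KO NK1.1+, KO NK1.1- and control cells, within 1.23-fold for every pair. Slc38a6, whose substrates are less well known, read 72.0, 70.5 and 58.5 in that order. Slc38a7, which exports glutamine and asparagine from lysosomes, read 15.8 in KO NK1.1+, 29.7 in KO NK1.1- and 27.1 in control cells, 1.72-fold lower in KO NK1.1+ than in control cells and not called.

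Slc38a9, the lysosomal arginine sensor that recruits mTORC1 through the Rag GTPases, read 467 in KO NK1.1+, 412 in KO NK1.1- and 230 in control cells. Both mutant fractions were above control, by 2.03-fold in NK1.1+ cells, which was called, and 1.80-fold in NK1.1- cells, which was not. The 7 measured Slc38a9 probe sets did not move alike. The 3 brightest differed between KO NK1.1+ and control by 0.94 to 1.02 on the log2 scale. The others read between 11.03 and 95.1 and differed by -0.13 to 0.16. For KO NK1.1- against control the 7 spread from -0.54 to 0.88, with 2 of them below 0. Averaged over all probe sets, the Slc38a9 difference between KO NK1.1+ and control was 0.43 and was not called, and with an offset of 32 it was 0.93.

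Slc38a10, a little studied carrier of inner membranes, read 2430 in KO NK1.1+, 1804 in KO NK1.1- and 1092 in control cells by its brightest probe set, 2.23-fold and 1.65-fold above control. Its 5 measured probe sets disagreed in KO NK1.1+ cells. One without suffix read 17.1 in KO NK1.1+, 71.1 in KO NK1.1- and 43.4 in control cells, a log2 difference of -1.35 between KO NK1.1+ and control, which turns the direction. For KO NK1.1- against control all 5 were above 0, from 0.0064 to 0.72. The higher value of Slc38a10 in KO NK1.1+ cells therefore rests on the choice of probe set.

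**Figure D3:**
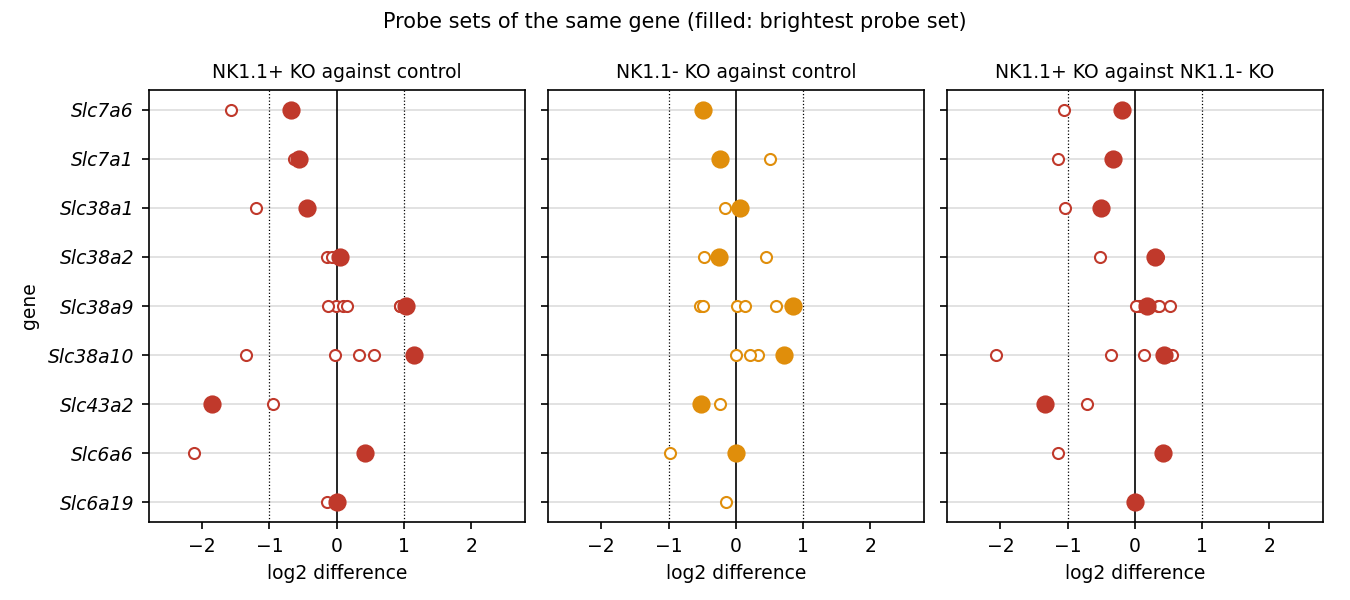
Log2 difference of every measured probe set of the 9 transporter genes with more than 1 (rows) in the 3 comparisons (panels), with the brightest probe set filled and the others open. The brightest Slc38a10 probe set gave 1.15 and another -1.35 for KO NK1.1+ against control, and those of Slc6a6 gave 0.42 and -2.12, while both Slc43a2 probe sets lay below 0 in every panel.

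Promoters of these lysosomal and inner-membrane carriers are shown because the E-box CACGTG, the site of MYC and of the lysosome factors TFEB and TFE3, was found in 2 of the 17 promoters, both of genes for lysosomal carriers. These are Slc38a7 (chr8:95853442-95853741, minus strand) and Slc36a1 (chr11:55204090-55204389, plus strand), with the E-box in capitals, beginning 34 bases before the start of Slc38a7 and 31 and 3 bases before that of Slc36a1. Slc38a9 (chr13:112660516-112660815, plus strand), Slc38a10 (chr11:120151302-120151601, minus strand) and Slc36a4 (chr9:15709488-15709787, plus strand) held neither the E-box nor the CARE letters.
Slc38a7: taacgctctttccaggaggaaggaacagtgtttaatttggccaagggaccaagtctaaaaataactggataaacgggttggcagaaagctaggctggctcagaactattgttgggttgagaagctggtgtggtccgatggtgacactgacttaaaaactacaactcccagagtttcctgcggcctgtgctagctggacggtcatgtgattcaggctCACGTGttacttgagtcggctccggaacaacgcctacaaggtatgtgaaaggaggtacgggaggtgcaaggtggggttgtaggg
Slc36a1: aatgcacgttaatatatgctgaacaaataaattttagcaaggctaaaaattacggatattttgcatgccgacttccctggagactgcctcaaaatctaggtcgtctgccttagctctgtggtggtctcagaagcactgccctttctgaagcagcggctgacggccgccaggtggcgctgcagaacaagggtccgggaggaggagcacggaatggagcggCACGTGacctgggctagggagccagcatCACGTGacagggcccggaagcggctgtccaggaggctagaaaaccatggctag
Slc38a9: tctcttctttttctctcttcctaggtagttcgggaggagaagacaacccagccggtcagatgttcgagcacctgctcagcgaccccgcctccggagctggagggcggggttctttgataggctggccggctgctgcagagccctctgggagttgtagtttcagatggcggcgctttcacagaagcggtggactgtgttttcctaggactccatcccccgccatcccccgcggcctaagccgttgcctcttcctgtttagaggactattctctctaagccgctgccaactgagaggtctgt
Slc38a10: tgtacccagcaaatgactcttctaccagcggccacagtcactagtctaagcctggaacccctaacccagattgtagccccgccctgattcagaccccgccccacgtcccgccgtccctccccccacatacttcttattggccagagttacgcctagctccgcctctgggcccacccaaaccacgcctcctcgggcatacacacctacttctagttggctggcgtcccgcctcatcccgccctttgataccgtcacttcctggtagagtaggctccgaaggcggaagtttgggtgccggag
Slc36a4: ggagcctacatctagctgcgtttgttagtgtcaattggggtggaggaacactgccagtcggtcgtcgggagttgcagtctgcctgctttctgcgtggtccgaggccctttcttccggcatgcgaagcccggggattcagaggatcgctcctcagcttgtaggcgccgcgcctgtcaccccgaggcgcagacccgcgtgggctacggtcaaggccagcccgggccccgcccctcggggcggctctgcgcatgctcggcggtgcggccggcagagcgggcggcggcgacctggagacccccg
Of all 32544 promoters, 7.17% held the E-box, which reads the same on both strands. The SMAD-binding letters GTCTAGAC, the palindrome bound by SMAD proteins downstream of TGF-β, were in 0 of the 17 promoters and in 0.215% of all. The 17 promoters belong to 14 of the 22 measured genes. Slc36a1 and Slc38a7, with the E-box, were both lower in KO NK1.1+ than in control cells by less than 2-fold (-0.54 and -0.78 on the log2 scale) and differed in KO NK1.1- cells by -0.027 and 0.13. Myc read 13.9 in KO NK1.1+, 45.9 in KO NK1.1- and 120 in control cells, with the NK1.1+ fraction 8.69-fold and the NK1.1- fraction 2.62-fold below control. Tfeb and Tfe3 were not called. Their log2 differences from control were 0.16 and -0.020 in KO NK1.1+ cells, and 0.059 and 0.0051 in KO NK1.1- cells. Binding of these factors was not measured, and their part in the values of Slc36a1 and Slc38a7 was not tested.

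In the SLC36 family, Slc36a1, which exports small amino acids from lysosomes, read 31.2 in KO NK1.1+, 44.4 in KO NK1.1- and 45.2 in control cells. Slc36a4, a high-affinity carrier of proline and tryptophan, read 27.6 in KO NK1.1+ cells, against 72.1 in KO NK1.1- and 66.3 in control cells. It was 2.41-fold lower in KO NK1.1+ than in control cells and 2.62-fold lower than in KO NK1.1- cells. KO NK1.1- and control cells differed by 1.09-fold. Slc36a4 was read by 1 probe set, and both of its calls ended with the level set higher, at the 75th percentile over all probe sets, or with an offset of 32.

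By the brightest probe sets, the SLC43 family held the largest differences of any transporter gene. Slc43a2, the facilitated carrier LAT4 of branched-chain amino acids, phenylalanine and methionine, read 190 in KO NK1.1+, 480 in KO NK1.1- and 687 in control cells. KO NK1.1+ cells were 3.62-fold below control and 2.53-fold below KO NK1.1- cells, and the KO NK1.1- cells lay between, 1.43-fold below control. A dimmer Slc43a2 probe set read 64.6, 106 and 125 in the same order, with a log2 difference of -0.95 between KO NK1.1+ and control. The order of the 3 arrays was thus the same by both probe sets. Among all genes tested, 7.82% lay as far below control or farther in KO NK1.1+ cells. Of 8 CD8+ T cell markers, 6 were called lower in KO NK1.1+ than in control cells and 0 higher. That is 75% and 0%, beside 22.9% and 9.85% of all genes. Against KO NK1.1- cells 4 of 8 were called lower, or 50%, beside 21.3%. The part of these markers in the Slc43a2 value was not tested.

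RefSeq gives Slc43a2 a pair of start sites in GRCm38.p6, and both windows are shown since by the brightest probe set this carrier had the largest difference of any transporter gene between KO NK1.1+ and control cells. The upstream window is chr11:75531444-75531743, plus strand, and the downstream one chr11:75531862-75532161, plus strand. No letters are in capitals, since none of the 3 elements searched was found.
Slc43a2 upstream: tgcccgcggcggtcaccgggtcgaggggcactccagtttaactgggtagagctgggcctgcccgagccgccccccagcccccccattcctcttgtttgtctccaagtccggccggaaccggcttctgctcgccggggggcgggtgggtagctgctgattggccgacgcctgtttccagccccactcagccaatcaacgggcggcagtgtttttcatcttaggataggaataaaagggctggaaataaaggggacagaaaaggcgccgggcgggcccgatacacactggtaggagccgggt
Slc43a2 downstream: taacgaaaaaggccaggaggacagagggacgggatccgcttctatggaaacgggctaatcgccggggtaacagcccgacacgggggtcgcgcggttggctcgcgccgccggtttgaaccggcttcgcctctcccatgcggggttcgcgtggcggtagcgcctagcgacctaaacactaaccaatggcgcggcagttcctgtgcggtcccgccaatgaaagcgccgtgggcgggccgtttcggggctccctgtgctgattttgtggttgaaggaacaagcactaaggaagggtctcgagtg
The G and C content was 63.7% in the upstream and 62.7% in the downstream window. Which start the probe sets read was not determined.

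Slc43a3, a carrier of purine nucleobases in the same family, read 16.1 in KO NK1.1+, 85.99 in KO NK1.1- and 18.3 in control cells. The KO NK1.1- value was 4.71-fold above control, and KO NK1.1+ cells were 5.34-fold below KO NK1.1- cells and 1.13-fold below control. In KO NK1.1- against control, 1.75% of all genes tested lay as far above or farther, and in KO NK1.1+ against KO NK1.1- cells 1.85% lay as far below or farther. Slc43a3 was thus high on the KO NK1.1- array alone. Of the proliferation list, 18 of 21 were called higher in KO NK1.1- against control, or 85.7%, beside 8.05% of all genes. In KO NK1.1+ against KO NK1.1- cells 19 of 22 were called lower, or 86.4%, beside 21.3%. Unlike Slc43a3, the list also had calls in KO NK1.1+ against control, 9 of 22 lower and 1 higher. These were 40.9% and 4.55%, beside 22.9% and 9.85% of all genes. Rrm1, the large subunit of ribonucleotide reductase, read 90.8 in KO NK1.1+, 1531 in KO NK1.1- and 620 in control cells. Slc43a3 was read by 1 probe set, and both calls ended with the level at the 75th percentile over all probe sets, at 0.66 and -0.66 on the log2 scale.

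In the SLC6 family, Slc6a8, which imports creatine, read 20.1 in KO NK1.1- cells and was below the level in KO NK1.1+ (8.39) and control cells (6.59). It was at least 2.08-fold higher in KO NK1.1- than in control cells, and KO NK1.1+ cells were at least 2.08-fold below KO NK1.1- cells. Slc6a8 thus shared with Slc43a3 a high value on the KO NK1.1- array only, close to the level. With differences centred on the median of all genes, the Slc6a8 difference between the mutant fractions was -0.74 and no longer called, and with an offset of 32 both calls ended (0.43 and -0.37).

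Slc6a6, the taurine carrier, was measured by a pair of probe sets that disagreed. The brightest read 264 in KO NK1.1+, 198 in KO NK1.1- and 198 in control cells, and the other 29.8, 65.9 and 130 in the same order. The log2 difference between KO NK1.1+ and control cells was 0.42 by the first and -2.12 by the second, so no direction is given for Slc6a6. Slc6a2, the noradrenaline carrier of neurons, read 12.4 in KO NK1.1+ cells and was below the level in the others. Slc6a19, a neutral amino acid carrier of gut and kidney, was just above the level in KO NK1.1+ cells (9.71) and below it in KO NK1.1- (9.41) and control cells (9.33) by its brightest probe set. Its other probe set read 5.20 in KO NK1.1+, 6.83 in KO NK1.1- and 10.7 in control cells, measured in control cells alone, so no direction is given for Slc6a19.

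Genes of amino acid use around the carriers were described by lists. A list of other carriers held those of amino acids outside the 7 families, and also some of nucleosides, sialic acid and glutathione. Against control, KO NK1.1+ cells had 2 of 20 genes of this list called higher and 4 called lower. That is 10% and 20%, near the 9.85% and 22.9% of all genes tested. Slc15a3, a lysosomal carrier of histidine and peptides known from myeloid cells, read 62.5 in KO NK1.1+, 20.5 in KO NK1.1- and 8.64 in control cells, at least 6.47-fold above control in the NK1.1+ fraction. Slc16a10, which lets aromatic amino acids out of cells, read 29.3, 9.84 and 42.2, so that KO NK1.1- cells were 4.29-fold below control. Slc25a38, a mitochondrial carrier of glycine, read 11.4, 48.9 and 43.2 in the same order. In KO NK1.1- against control the list had 1 of 20 called higher and 1 lower, or 5% each, against 8.05% and 5.56% of all genes. Between the mutant fractions it had 2 higher and 6 lower, or 10% and 30%, against 6.53% and 21.3%.

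Of 32 genes of amino acid sensing and mTORC1, 11 were called lower in KO NK1.1+ than in control cells and 4 higher, or 34.4% and 12.5%, against 22.9% and 9.85% of all genes. In KO NK1.1- cells 4 of 31 were called lower and 0 higher, or 12.9% and 0%, against 5.56% and 8.05%. The genes with the largest differences were low in both fractions. Sesn1, a sestrin that restrains mTORC1, read 280 in KO NK1.1+, 326 in KO NK1.1- and 1578 in control cells. It was thus 5.65-fold below control in the NK1.1+ and 4.84-fold in the NK1.1- fraction. Sesn3, a related sestrin, read 182, 299 and 856 in the same order. Rragd, one of the Rag GTPases that Slc38a9 acts through, was below the level in KO NK1.1+ cells and read 19.5 in KO NK1.1- and 75.4 in control cells, at least 7.81-fold lower in the NK1.1+ and 3.86-fold lower in the NK1.1- fraction than in control cells.

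Of 15 genes of the ATF4 response, 4 were called higher and 4 lower in KO NK1.1+ cells against control, or 26.7% each way, where all genes had 9.85% higher and 22.9% lower. In KO NK1.1- cells 0 of 13 were called either way, where all genes had only 8.05% higher and 5.56% lower. Atf4 itself was 3.59-fold and Cebpb, a partner factor with a broad role in myeloid cells, 6.18-fold above control in KO NK1.1+ cells. Phgdh, the first enzyme of serine synthesis, read 199 in KO NK1.1+, 818 in KO NK1.1- and 787 in control cells. The synthetase list held aminoacyl-tRNA synthetases, which load amino acids on transfer RNA, and Aimp1, Aimp2 and Eef1e1, which are partner proteins and not synthetases. Its genes were mostly low in the NK1.1+ fraction of the KO. Against control, 14 of 21 were called lower, Aimp1 and Eef1e1 among them, and 0 higher. That is 66.7% and 0% beside 22.9% and 9.85% of all genes, at a median of -1.43 on the log2 scale. Kars read 46.7, 400.2 and 652, Rars 138, 712 and 1114, and Vars 12.2, 65.4 and 46.1 in KO NK1.1+, KO NK1.1- and control cells. In KO NK1.1- against control 1 of 21 genes of the synthetase list was called lower and 0 higher, or 4.76% and 0%, beside 5.56% and 8.05% of all genes. The transporter genes, with a median of -0.18, were nearer to control on the KO NK1.1+ array than the synthetase list, a difference that was not tested.

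Of 20 genes of amino acid breakdown and use, 7 were called lower and 2 higher in KO NK1.1+ cells against control, or 35% and 10%, beside 22.9% and 9.85% of all genes. Got1, the cytosolic aspartate transaminase, read 9.40, below the level, in KO NK1.1+ cells, against 106 in KO NK1.1- and 126 in control cells, at least 13.03-fold lower than in control cells. Srm, which makes spermidine, read 25.8, 66.8 and 185, and Asl, of arginine synthesis, 9.32, 58.4 and 67.1 in the same order. Bcat1, which strips the amino group from leucine and was chosen after its values were seen, read 18.4 in KO NK1.1+, 82.3 in KO NK1.1- and 22.01 in control cells, high on the KO NK1.1- array as Slc43a3 was. Of 12 transcription factors tied to transporter expression, 3 were called lower in KO NK1.1+ than in control cells and 1 higher, or 25% and 8.33%, near the 22.9% and 9.85% of all genes. In KO NK1.1- cells 2 were called lower and 0 higher, or 16.7% and 0%, beside 5.56% and 8.05%. Mlx, a partner of the nutrient-sensing factor MondoA, read 67.7 in KO NK1.1+, 101.01 in KO NK1.1- and 188 in control cells.

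**Figure D4:**
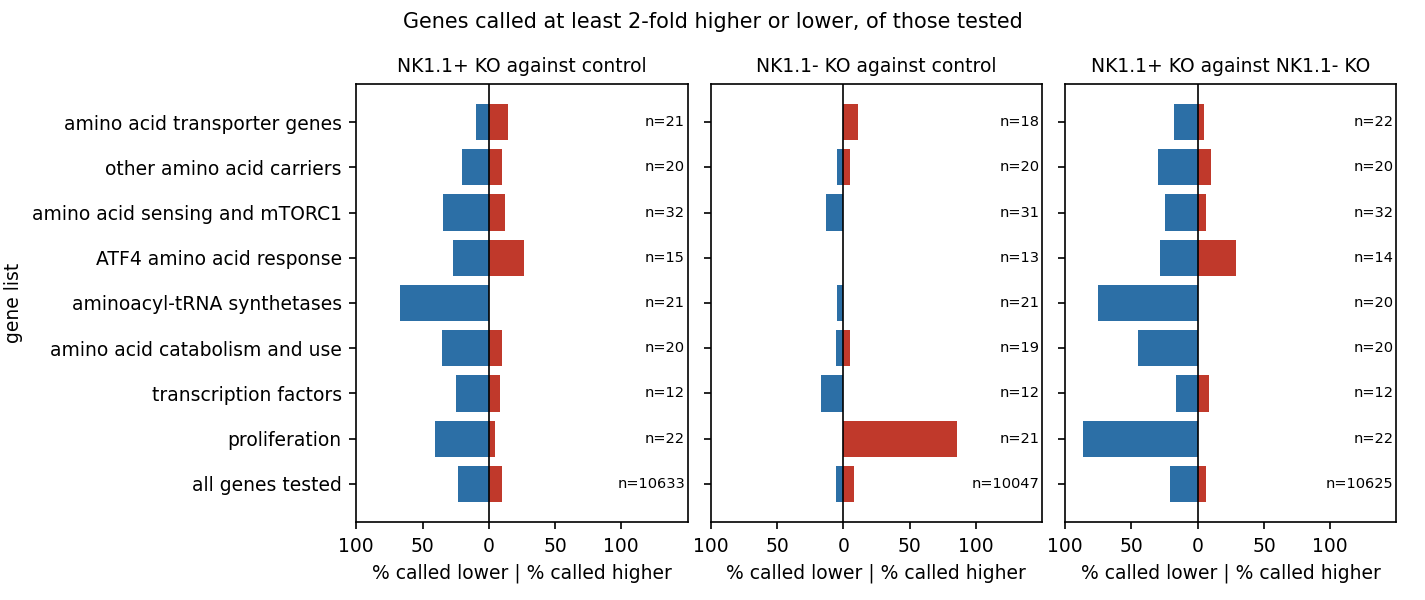
Share of the genes tested that were called at least 2-fold lower (left of 0) or higher (right of 0) in each comparison (panels), for the transporter genes, 7 other lists and all genes, with the number tested beside each bar. In KO NK1.1+ against control the transporter genes had 9.52% lower and 14.3% higher, against 22.9% and 9.85% of all genes, and the synthetase list 66.7% lower.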

How the data were processed

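The values were taken as the authors deposited them: linear probe set intensity, which ran from 2.60 to 55468 once array controls were set aside. The submitters' processing notes name GCRMA 1.1.3, with settings not stated in the sources used here. All 3 columns belonged to a sample, and groups were taken from the sample titles.

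Of 45101 probe sets, 64 were array controls, which were used for no gene, and GEO's platform annotation gave a single gene symbol to 34945, more than 1 to 932 and none to 9160 of the rest. Only those with a single symbol were used for genes. The Entrez identifiers of all 58 members matched a RefSeq gene with the same symbol. The background level of 9.66 (3.27 on the log2 scale) was taken from 145 single-symbol probe sets of genes that T cells should not use (lens crystallins, keratin-associated proteins, and taste, vomeronasal and olfactory receptors), as the 95th percentile of their values on all 3 arrays. Log2 was taken after raising lower values to it. A gene was tested in a comparison if measured on either array.

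Named were all members measured on at least 1 array, and up to 3 genes a list with the largest absolute difference in any comparison. The members, the 7 pathway lists and the 7 marker lists were chosen with earlier results of these data known, and the promoter elements after the values were seen. List names without a single-symbol probe set were not analysed here. Alternatives were another level, an offset of 32, the mean of all measured probe sets, leaving out suffixed probe sets (which can read several transcripts or genes), quantile normalization, centring on all genes and calls at 3-fold. The call rule was tried on simulated data, with noise set from KO NK1.1- against control. Changes were placed only in genes well above the level on the control array. The simulation therefore says nothing of dim genes such as Slc1a4, Slc6a8 and Slc43a3. Calculations used Python 3.11.15 with pandas 2.3.3 and numpy 2.4.6. Promoter sequences came from a RefSeq table of GRCm38.p6, and the sources used here do not state a build for the probe sets.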

Additional observations from a re-analysis of the deposited data

How the results depend on the processing

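The counts of transporter genes called (5 for KO NK1.1+ against control, 2 for KO NK1.1- against control and 5 between the mutant fractions) stayed within 1.5 times under quantile normalization, centring, the mean of all measured probe sets and leaving out suffixed probe sets. In the same order of comparisons they were 3, 0 and 1 with the level at the 75th percentile over all probe sets, 2, 1 and 2 with an offset of 32, and 1, 1 and 1 at 3-fold. At the higher level only 12, 13 and 13 transporter genes were tested. Shares over all genes fell too. For KO NK1.1+ against control, 9.85% higher and 22.9% lower became 7.9% and 21% at the higher level. They became 5.5% and 14% with the offset, and 5.25% and 11.4% at 3-fold. A higher level and an offset shrink differences of dim probe sets by construction. The Slc43a2 call against control held under all 7 alternatives (-1.86 to -1.41). Slc38a10 turned over when suffixed probe sets were left out, to -1.35 for KO NK1.1+ against control and -2.06 between the mutant fractions, because a dimmer probe set then stands for the gene. Under that setting Slc38a1 was called lower in KO NK1.1+ cells (-1.20 against control and -1.04 against KO NK1.1-), and the mean of probe sets called Slc7a6 lower (-1.13 against control). Slc1a4 could not be measured without its suffixed probe set. No paired analysis was possible because each group has 1 array, and for the same reason no array could be left out. Dim genes near the level, Slc1a3, Slc1a4, Slc6a8, Slc6a2, Slc7a13 and Slc6a19 among them, limit what can be read from a difference.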
